A study of Mus musculus with 8 samples.

Results

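The transcripts of the pyruvate dehydrogenase complex, its regulatory kinases and phosphatases, the tricarboxylic acid (TCA) cycle and the neighboring steps of pyruvate, glutamate and aspartate were examined in AtT20 cells. They were 37 genes taken by name, of the 19751 genes that could be paired with a probe through the RefSeq accession on the array. AtT20 is a mouse line of pituitary corticotroph tumor cells, which secrete ACTH. HX630 is a synthetic agonist of the retinoid X receptors (RXRs), nuclear receptors that bind DNA as dimers. RNA came from 4 control samples, in which AtT20 cells were kept for 48 hr without HX630, and from 4 samples that had received 10 μM HX630 over the same time. The agonist was dissolved in DMSO, and whether the control samples received DMSO is not given in the sources used here. Both groups were held in DMEM with stripped serum during the incubation. All samples came from the same cell line, and nothing states that they were separate cultures, so that the p-values measure the spread between these samples, which may be technical.

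Pyruvate from glycolysis enters the mitochondrion through the mitochondrial pyruvate carrier, where pyruvate dehydrogenase turns it into acetyl-CoA and pyruvate carboxylase turns it into oxaloacetate. The kinases of the Pdk family phosphorylate pyruvate dehydrogenase and switch it off, and the phosphatases Pdp1 and Pdp2 switch it on again. The TCA cycle oxidizes the acetyl group, and its intermediates leave for lipid, amino acid and heme synthesis, while glutamate and aspartate feed back into it.

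Each value is the log2 processed signal of a probe minus the 75th percentile of its array, referred to as the log2 signal, so that 0 stands for the 75th percentile. The 75th percentile itself ranged from 1335 to 1863 intensity units over control arrays and from 1803 to 1899 over HX630 arrays, and no spot outside the array's control spots was saturated. Feature Extraction marks a spot that exceeds its local background clearly as well above background. The 28552 probes with this mark on 4 or more arrays were compared with limma, with p-values adjusted over all of them. A gene was represented by its brightest tested probe, and was called up-regulated or down-regulated where the adjusted p was under 0.01 and the fold change over 1.5, which is 0.58 on the log2 scale. All control arrays lay on slide 1, read in scan 1, and all HX630 arrays on slide 2, read in scan 2, so that slide and treatment cannot be told apart. All 8 corticotroph markers examined were well above background on the 8 arrays, and their summed signal was 663 to 825 times the 75th percentile in control and 485 to 507 times in HX630-treated cells. Of 18 markers of other pituitary, fibroblast, immune and endothelial cells with a probe, 7 were well above background on none of the arrays, and *Prl*, *Tshb*, *Cga*, *Lum*, *Pdgfra*, *Lyz2* and *Cdh5* were these. Among the rest, the fibroblast gene *Dcn* was called higher (log2 fold change 1.04), and *Gh* (-0.79) and *Pecam1* (-0.59) were called lower. The summed signals of these lists were at most 3.35 times the 75th percentile, which was reached by the endothelial list in control cells. Most of that came from *Kdr*, whose mean log2 signal in control (1.54) was near that of the corticotroph marker *Tbx19* (1.74). *Kdr* was lower by -0.36 with HX630 (limma adjusted p = 0.00998), under the fold threshold. The part of these cell types in the results was not tested.

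HX630 was followed by an uneven change across these genes, in which *Idh1* was up-regulated and *Pdk1*, *Pcx*, *Idh2* and *Got1* were down-regulated. These 5 were 14.3% of the 35 genes tested, against 19.5% of the 15319 genes tested on the array (8.38% up-regulated and 11.2% down-regulated), a share below that of the array as a whole. Without the fold threshold, 24 of 35 genes had an adjusted p below 0.01 (68.6%, limma), against 51.2% of all genes. Of these, 18 were lower with HX630 (51.4%, against 27.2% of all genes) and 6 were higher (17.1%, against 24.0%), and 19 lay under the fold threshold. With spike-in control probes as the scale instead of the 75th percentile, the counts turned round at the same adjusted p. There 7 of 35 genes were lower (all genes 11.5%) and 10 of 35 higher (all genes 38.8%). Relative to all genes, the share lower stayed above that of the array and the share higher stayed below it. The 7 were *Pdk1*, *Pdp1*, *Mpc1*, *Pcx*, *Idh2*, *Idh3b* and *Got1*, and the 10 were *Pdk2*, *Pdk3*, *Pdp2*, *Pdhx*, *Aco1*, *Idh1*, *Dlst*, *Suclg1*, *Sucla2* and *Glud1*. In 30 of 35 genes the 4 HX630 arrays did not overlap the 4 control arrays (85.7%, against 61.5% of all genes). The median log2 fold change was -0.20, compared with -0.034 over all genes, and 25 genes were lower and 10 higher. With spike-in scaling, the median of all genes moved by 0.26 and that of these genes became 0.053, so that the direction of the smaller changes depends on the scaling. Measured from the median of all genes, the median of these genes stood at -0.17, and 23 of 35 genes lay below the median of all genes, or 21 with quantile normalization and with normexp background correction. Scalings that shift all genes alike cannot alter this difference.

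**Figure D1:**
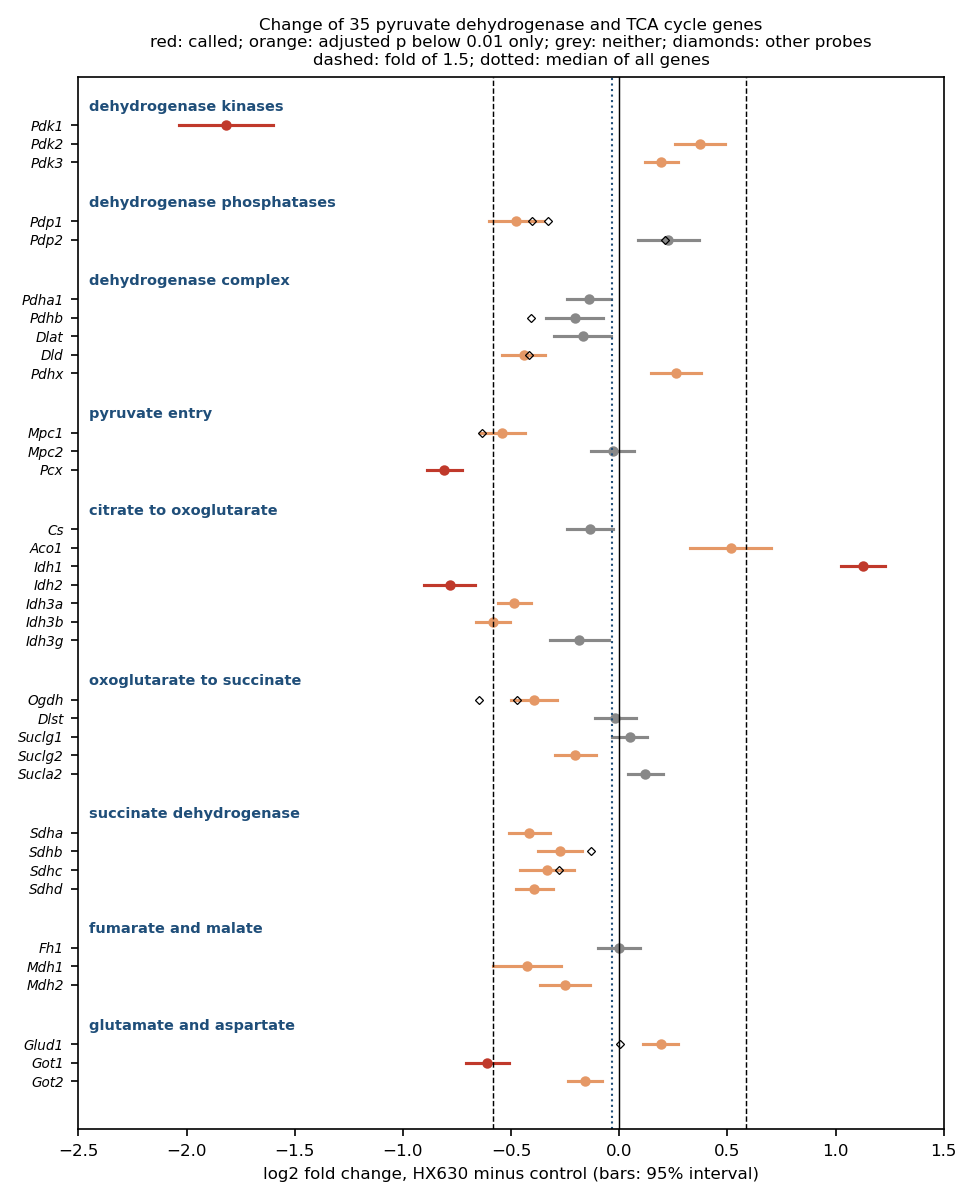
Log2 fold change (HX630 minus control, x axis) of each of the 35 tested genes, grouped by role, at 75th percentile scaling. Points are the estimates (red, called; orange, adjusted p below 0.01 alone; grey, neither), bars their 95% intervals and diamonds the other probes of a gene, the dashed lines mark a fold of 1.5, and the *Pdk1* point at -1.82 and the *Idh1* point at 1.13 stand farthest from 0. With spike-in scaling all points move up by 0.26, and 10 of the points below 0 cross it.

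The pyruvate dehydrogenase kinases did not move together. The log2 signal of *Pdk1* was 0.77, 1.10, 1.22 and 1.01 in the control arrays and -0.81, -0.81, -0.71 and -0.84 in the HX630 arrays. The groups were far apart, and *Pdk1* fell by 1.82 on the log2 scale (SE 0.093, limma adjusted p = 1.96e-06), to 28.4% of control. *Pdk2* was 0.37 higher (SE 0.050, adjusted p = 3.86e-04) and *Pdk3* 0.20 higher (SE 0.032, adjusted p = 0.00116), both without overlap of the groups and both under the fold threshold. *Pdk4*, the kinase known for its induction on fasting in muscle and liver, was well above background on 1 of 4 control and 1 of 4 HX630 arrays and was not tested.

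Of the phosphatases, *Pdp1* was 0.82, 0.74, 0.64 and 0.63 in control and 0.30, 0.19, 0.25 and 0.18 with HX630. These arrays did not overlap, and the difference of -0.48 (SE 0.053, adjusted p = 1.41e-04) left *Pdp1* at 71.8% of control, under the fold threshold. *Pdp2* differed by 0.23 (SE 0.061, adjusted p = 0.0130), and its other, dim probe by 0.21 (adjusted p = 0.169). The adjusted p of *Pdp2* was below 0.01 with the median (0.31), quantile (0.24) and spike-in (0.48) scalings. *Pdpr*, the regulatory subunit of the phosphatase, was well above background on 1 HX630 array and on 0 of the control arrays, and was not tested.

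None of the 5 subunits of the dehydrogenase complex itself was called, where 19.5% of all genes were, and 5 genes are too few to compare with that share. *Dld*, the dihydrolipoamide dehydrogenase shared with the oxoglutarate and branched-chain dehydrogenases, was lower by -0.44 (SE 0.044, adjusted p = 6.94e-05), and *Pdhx*, which tethers it to the complex, was higher by 0.26 (SE 0.050, adjusted p = 0.00250). *Pdha1* and *Pdhb*, the subunits of the decarboxylase, differed by -0.14 (adjusted p = 0.0268) and -0.21 (adjusted p = 0.0151). *Dlat*, the acetyltransferase core, differed by -0.17 (adjusted p = 0.0341). These 3 genes did not pass the threshold, and their sign is positive with spike-in scaling (0.12, 0.050 and 0.086). With normexp, *Pdha1* (-0.29, adjusted p = 0.00176) and *Pdhb* (-0.28, adjusted p = 0.00319) had an adjusted p below 0.01, as did *Pdhb* with its probes averaged (-0.31, adjusted p = 0.00101). *Dld* was -0.19 (adjusted p = 0.0261) with spike-in scaling. Within the complex, differences of both signs were measured and each was under the fold threshold.

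At pyruvate entry, *Pcx*, the pyruvate carboxylase that refills oxaloacetate, gave 2.73, 2.73, 2.79 and 2.77 in control and 1.99, 1.90, 1.95 and 1.94 with HX630. Replicates lay close together in both groups, and *Pcx* fell by 0.81 on the log2 scale (SE 0.035, adjusted p = 8.65e-07), to 57.1% of control. *Mpc1*, a subunit of the mitochondrial pyruvate carrier, was 4.32, 4.24, 4.17 and 4.19 in control and 3.71, 3.71, 3.63 and 3.72 with HX630, a difference of -0.54 (SE 0.044, adjusted p = 2.52e-05) that was not called. The other probe of *Mpc1* was lower by -0.63 (adjusted p = 2.79e-06) and was called. *Mpc2*, the partner subunit, differed by -0.031 (SE 0.042, adjusted p = 0.557) with overlapping groups, and its sign turns with the median (0.057), quantile (0.053) and spike-in (0.23) scalings.

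**Figure D2:**
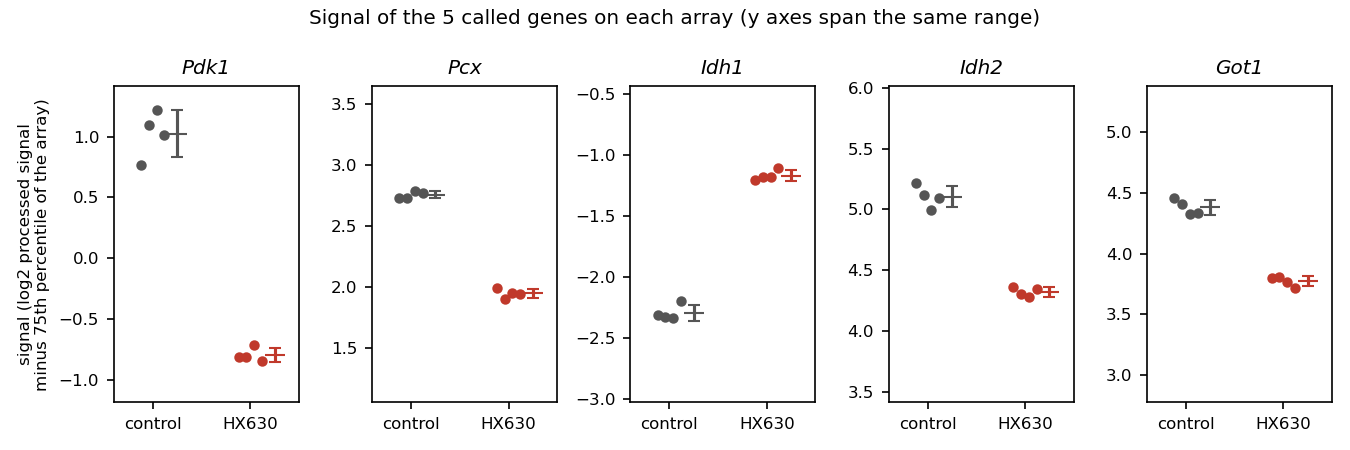
Log2 signal (y axis, minus the 75th percentile of the array) on each of the 4 control and 4 HX630 arrays for the 5 called genes, with bars for the mean and SD (n = 4). In each panel the groups are apart: *Idh1* is near -2.29 in control and -1.17 with HX630, and *Pdk1* near 1.02 and -0.79.

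The NADP-dependent isocitrate dehydrogenases went opposite ways. *Idh1*, the cytosolic NADP-dependent enzyme, gave -2.31, -2.33, -2.33 and -2.20 in control and -1.20, -1.18, -1.18 and -1.10 with HX630. All HX630 arrays were higher, and the rise of 1.13 (SE 0.044, adjusted p = 5.81e-07) was 2.19-fold. *Idh2*, the mitochondrial NADP-dependent enzyme, gave 5.21, 5.12, 5.00 and 5.10 in control and 4.37, 4.30, 4.28 and 4.34 with HX630. It fell by 0.78 on the log2 scale (SE 0.050, adjusted p = 6.55e-06), to 58.1% of control.

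The NAD-dependent enzyme of the cycle has catalytic and regulatory subunits. *Idh3b*, a regulatory subunit, was 3.102, 3.131, 3.067 and 3.032 in control and 2.505, 2.487, 2.508 and 2.503 with HX630. It differed by -0.58 (SE 0.033, adjusted p = 3.47e-06), a 1.497-fold difference just under the fold threshold, while *Got1* at 1.52-fold lay just over it. *Idh3a*, the catalytic subunit, was 3.16, 3.15, 3.14 and 3.20 in control and 2.68, 2.64, 2.67 and 2.72 with HX630, a difference of -0.49 (SE 0.033, adjusted p = 8.31e-06), or -0.23 (adjusted p = 0.0332) with spike-in scaling. Both subunits were separate between the groups, whereas *Idh3g*, the other regulatory subunit, overlapped (-0.18, SE 0.058, adjusted p = 0.0267, and 0.072 with spike-in scaling).

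*Aco1*, the cytosolic aconitase that doubles as an iron regulatory protein, was -3.90, -3.58, -3.65 and -3.59 in control and -3.07, -3.15, -3.17 and -3.27 with HX630. Its arrays did not overlap, and the difference of 0.51 (SE 0.080, adjusted p = 8.77e-04) was not called. With normexp background correction it was 0.23 (adjusted p = 0.0789). *Cs*, the citrate synthase that opens the cycle, differed by -0.13 (adjusted p = 0.0368), with a positive sign under quantile (0.085) and spike-in (0.12) scaling.

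From oxoglutarate to succinate, none of 5 genes was called (19.5% of all genes were). *Ogdh*, the oxoglutarate dehydrogenase, was lower by -0.39 (SE 0.046, adjusted p = 1.84e-04), and its dimmer probes gave -0.65 (called) and -0.47. With spike-in scaling *Ogdh* was -0.14 (adjusted p = 0.129). *Suclg2*, the GTP-forming subunit of succinyl-CoA ligase, was lower by -0.20 (SE 0.041, adjusted p = 0.00367), and 0.053 with spike-in scaling. *Sucla2*, the ATP-forming subunit, differed by 0.12 (adjusted p = 0.0187). Its adjusted p was below 0.01 with the median (0.21), quantile (0.18) and spike-in (0.38) scalings, and 0.173 with normexp (0.076). *Suclg1*, the subunit common to both forms (0.049, adjusted p = 0.258), and *Dlst*, the succinyltransferase core (-0.017, adjusted p = 0.732), had overlapping groups, and the sign of *Dlst* is positive with the median (0.070), quantile (0.061) and spike-in (0.24) scalings. With spike-in scaling *Suclg1* was 0.30 higher (adjusted p = 0.00598).

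All 4 subunits of succinate dehydrogenase, which links the cycle to the respiratory chain, were lower at an adjusted p below 0.01, none of them past the fold threshold, and the share of all genes lower at that p was 27.2%. *Sdha*, the flavoprotein, was 1.33-fold lower (-0.42, SE 0.041, adjusted p = 7.12e-05). *Sdhb*, the iron-sulfur subunit, was 1.21-fold lower (-0.27, SE 0.043, adjusted p = 9.68e-04). The membrane anchors *Sdhc* and *Sdhd* were 1.26-fold (-0.33, SE 0.053, adjusted p = 0.00105) and 1.31-fold lower (-0.39, SE 0.037, adjusted p = 5.31e-05). In every subunit the groups did not overlap, as in 61.5% of all genes. With spike-in scaling all 4 kept a negative sign, but the log2 fold changes were between -0.16 and -0.018 and the adjusted p between 0.0329 and 0.807, and with quantile normalization *Sdhb* had an adjusted p of 0.0625.

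Of the last steps, *Fh1*, the fumarase, differed by 0.00076 (SE 0.042, 95% interval -0.10 to 0.10, adjusted p = 0.989) at 75th percentile scaling and by 0.26 (adjusted p = 0.0143) with spike-in scaling. The malate dehydrogenases, cytosolic *Mdh1* (-0.42, SE 0.068, adjusted p = 0.00101) and mitochondrial *Mdh2* (-0.25, SE 0.049, adjusted p = 0.00300), were both lower under the fold threshold, *Mdh2* with a positive sign under quantile (0.033) and spike-in (0.0044) scaling. *Mdh1* had an adjusted p of 0.0205 with the median of each array (-0.34) and of 0.224 with spike-in scaling (-0.17).

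*Got1*, the cytosolic aspartate aminotransferase of the malate-aspartate shuttle, was 4.46, 4.41, 4.33 and 4.34 in control and 3.80, 3.80, 3.77 and 3.72 with HX630. The groups did not overlap, and *Got1* fell by 0.61 on the log2 scale (SE 0.042, adjusted p = 9.35e-06), to 65.6% of control. This call was lost with the median (-0.52), quantile (-0.52), spike-in (-0.35) and normexp (-0.57) settings and without control replicate 1 (-0.58). *Got2*, the mitochondrial form, was lower by -0.16 (SE 0.034, adjusted p = 0.00469), and 0.097 with spike-in scaling. It did not pass with the median (-0.072, adjusted p = 0.280), quantile (-0.087, adjusted p = 0.0685) and normexp (-0.073, adjusted p = 0.117) settings. *Glud1*, the glutamate dehydrogenase, was higher by 0.19 (SE 0.034, adjusted p = 0.00185) on its brightest probe, and its other probe differed by 0.0029 (adjusted p = 0.941).

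Enzymes of the same step were then compared within each array, as the difference of their log2 signals, which does not depend on the scaling to the 75th percentile. Of 14 pairs planned, 11 were run, since *Pdk4* was not tested, and p-values were adjusted over these 11. In 9 pairs the groups did not overlap. Each had an exact two-sided permutation p = 0.0286, the smallest that 4 arrays against 4 can give, and an adjusted p = 0.0349. The share among other gene pairs was not computed, and 61.5% of single genes on the array did not overlap. The largest was *Pdk1* against *Pdk2*, whose ratio was 4.56-fold lower with HX630 (-2.19, SE 0.134). *Pdk1* against *Pdk3* changed by -2.01 (SE 0.097), and *Pdk2* against *Pdk3* by 0.18 (SE 0.057). The *Idh1* to *Idh2* ratio was 3.76-fold higher (1.91, SE 0.060). The remaining differences between partners of the same step were -0.71 (SE 0.079) for *Pdp1* against *Pdp2*, -0.51 (SE 0.068) for *Mpc1* against *Mpc2* and -0.45 (SE 0.040) for *Got1* against *Got2*. *Suclg2* against *Sucla2* changed by -0.32 (SE 0.033) and *Idh3a* against *Idh3g* by -0.30 (SE 0.060). For *Idh3a* against *Idh3b* (0.097, SE 0.034) and *Mdh1* against *Mdh2* (-0.17, SE 0.083) the groups overlapped, with an exact permutation p = 0.0857. On these arrays the kinases, phosphatases, carrier subunits, aminotransferases and NADP-dependent isocitrate dehydrogenases changed unequally. Whether they did so more than other gene pairs was not tested. With normexp correction, *Pdk2* against *Pdk3* (0.13) and *Idh3a* against *Idh3g* (-0.17) no longer passed.

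**Figure D3:**
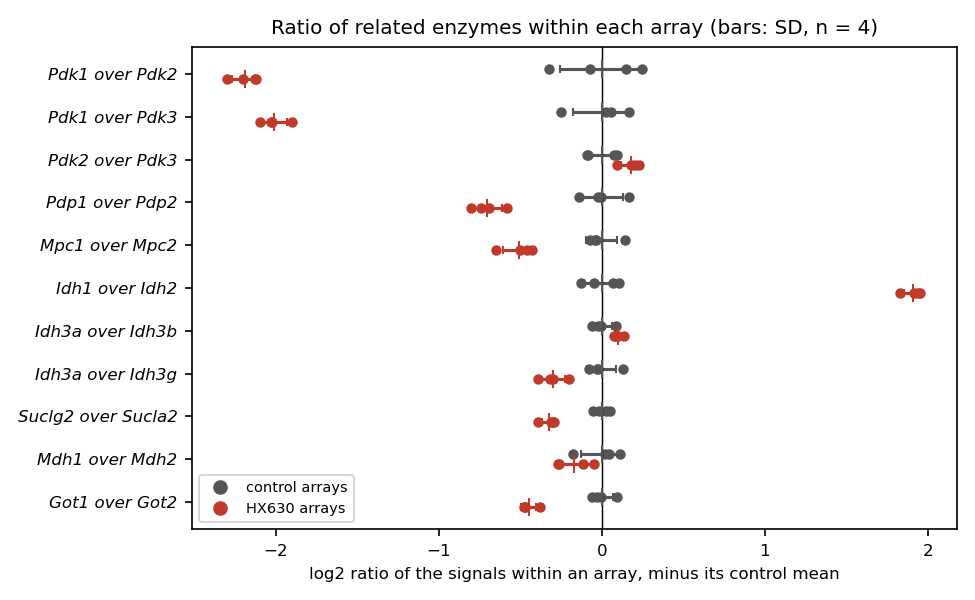
Difference of the log2 signals of both genes of a pair on each array (x axis, minus the mean of the control arrays), for the 11 pairs, with control and HX630 arrays as separate points and bars for the mean and SD (n = 4). The *Pdk1* pairs lie farthest left with HX630 (-2.19 and -2.01), *Idh1* against *Idh2* lies farthest right (1.91), and *Idh3a* against *Idh3b* and *Mdh1* against *Mdh2* overlap the control arrays.

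The calls differed in how far they depended on the values used. *Pdk1* (log2 fold change -1.90 to -1.56) and *Idh1* (0.81 to 1.38) were called under all 24 alternative settings. *Pcx* (-0.55) and *Idh2* (-0.53) were not called with spike-in scaling, and were called under the others. *Aco1* passed the call with the median (0.60), quantile (0.60) and spike-in (0.77) scalings, and *Pdk2* with spike-in scaling (0.63).

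**Figure D4:**
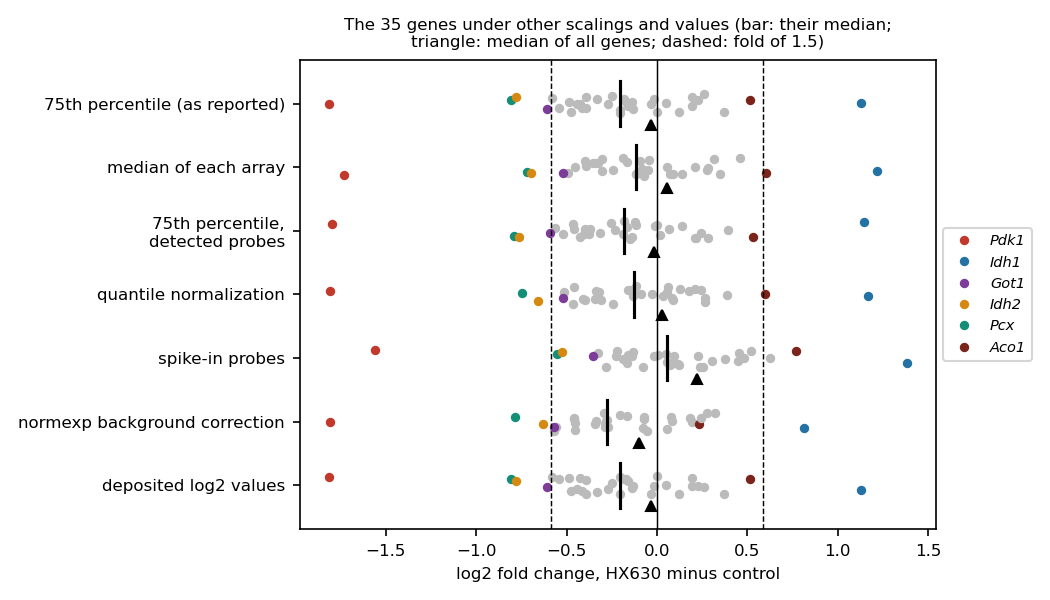
Log2 fold change (x axis) of the 35 tested genes under 7 scalings or value types (rows), with *Pdk1*, *Pcx*, *Idh1*, *Idh2*, *Got1* and *Aco1* in color, the median of the 35 genes as a bar and that of all genes as a triangle. *Pdk1* and *Idh1* stay outside the dashed lines (a fold of 1.5) in each row, and the median of the 35 genes is negative except with spike-in scaling (0.053), where the median of all genes is 0.22.

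Promoter sequences are shown for genes at the extremes of the list. Short motifs were searched on both strands, ACGTG, the core bound by hypoxia-inducible factors and part of many E-boxes, and AGGTCA, the half-site of nuclear receptors, the latter also as DR1, a direct repeat of AGGTCA with 1 base between the copies. The sequences are from RefSeq (GRCm38.p6) and hold the 250 bases before the start, and 34 of the 37 genes had an entry. *Pdk1* had the largest fall, *Idh1* the only called rise, and *Pcx* carried the most ACGTG matches of the called genes. Capitals mark a match of either motif.
*Pdk1*, chr2:71872974-71873223, strand plus: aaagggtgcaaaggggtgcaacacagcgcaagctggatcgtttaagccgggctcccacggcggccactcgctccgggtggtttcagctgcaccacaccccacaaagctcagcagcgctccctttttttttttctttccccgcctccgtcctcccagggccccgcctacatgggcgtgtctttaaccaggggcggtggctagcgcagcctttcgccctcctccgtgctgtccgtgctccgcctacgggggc
*Idh1*, chr1:65186480-65186729, strand minus: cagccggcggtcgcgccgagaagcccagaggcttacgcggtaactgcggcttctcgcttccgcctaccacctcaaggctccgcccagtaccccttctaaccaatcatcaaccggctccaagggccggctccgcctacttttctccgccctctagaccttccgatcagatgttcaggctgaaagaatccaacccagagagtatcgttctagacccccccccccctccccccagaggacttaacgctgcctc
*Pcx*, chr19:4510222-4510471, strand plus: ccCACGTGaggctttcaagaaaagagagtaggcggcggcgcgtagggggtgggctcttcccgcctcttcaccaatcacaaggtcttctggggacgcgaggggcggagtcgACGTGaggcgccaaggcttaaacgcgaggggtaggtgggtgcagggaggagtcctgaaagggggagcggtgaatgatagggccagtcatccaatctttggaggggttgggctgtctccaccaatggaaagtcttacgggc
Neither motif occurred in the *Pdk1* and *Idh1* windows. The *Pcx* window held 3 matches of ACGTG, starting 248, 247 and 140 bases before the start, of which the first pair are both strands of the same CACGTG. Of the other called genes, *Idh2* had none and *Got1* had 1 AGGTCA. A match of ACGTG was present in 10 of 34 windows of these genes and in 16.5% of the 27025 windows in the table, AGGTCA in 5 of 34 and 13.8%, and DR1 in 0 of 34 and 0.037%. A match is a description of the letters and not a binding site.

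Genes next to the pathway were taken as 5 lists of 55 genes, of which 51 were tested. Of these, 1 was up-regulated and 10 were down-regulated (21.6% called, against 19.5% of all genes). At an adjusted p below 0.01 alone, 11 were higher and 18 lower (56.9%, against 51.2% of all genes), with a median log2 fold change of -0.080. Both shares, taken in either direction, lay near those of the array as a whole. By direction, 35.3% were lower at that p (27.2% of all genes) and 21.6% were higher (24.0% of all genes). Of all genes, 8.38% were up-regulated and 11.2% down-regulated. Of 13 pyruvate and lactate genes, 0 were up-regulated (8.38% of all genes) and 6 down-regulated (11.2% of all genes). *Ldhb*, the lactate dehydrogenase subunit that predominates in heart, was -3.20, -3.26, -3.42 and -3.32 in control and -5.81, -6.71, -6.58 and -6.32 with HX630, a fall to 12.0% of control (-3.06, SE 0.184, adjusted p = 4.61e-06). Its HX630 values were well above background on 4 of 4 arrays but dim, with an SD of 0.40 against 0.092 in control. They lay near those of the untested *Pdk4* (mean -6.98 with HX630), so the size of this fall is uncertain. *Slc16a3*, a lactate exporter, was 6.12, 6.21, 6.15 and 6.18 in control and 3.96, 3.88, 3.99 and 3.96 with HX630, a fall to 21.5% (-2.22, SE 0.038, adjusted p = 5.71e-08). *Ldha*, the subunit that predominates in muscle, was at 51.0% of control (-0.97, adjusted p = 2.26e-05), and its dimmer probes gave -1.69 and -1.57. *Me3*, a mitochondrial malic enzyme, was at 35.4% (-1.50, adjusted p = 2.62e-07), and *Pkm*, the pyruvate kinase, and *Slc16a1*, a monocarboxylate transporter, were at 52.4% and 52.5%.

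*Slc25a1*, the mitochondrial citrate carrier, was the gene called higher in these lists, at 0.55, 0.65, 0.60 and 0.59 in control and 1.52, 1.58, 1.55 and 1.55 with HX630 (0.95, SE 0.034, adjusted p = 4.40e-07). *Slc25a42*, the mitochondrial CoA carrier, fell by 1.25 on the log2 scale, and was the other called gene among 9 tested carriers (22.2%, against 19.5% of all genes). *Gls2*, the liver-type glutaminase, fell by 1.36 on the log2 scale (SE 0.063, adjusted p = 1.24e-06). It was the only gene called of 14 for entry and exit of carbon (7.14%, against 19.5% of all genes). *Bckdhb* (-0.99) and *Dbt* (-0.85) are subunits of the branched-chain ketoacid dehydrogenase, which shares *Dld* with pyruvate dehydrogenase. They were the called genes of 11 for lipoylation and related dehydrogenases (18.2%, near the 19.5% of all genes). None of the 4 succinate dehydrogenase assembly factors was called, a list too short to set against the 19.5% of all genes. With spike-in scaling 5 genes of these lists were called up-regulated.

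**Figure D5:**
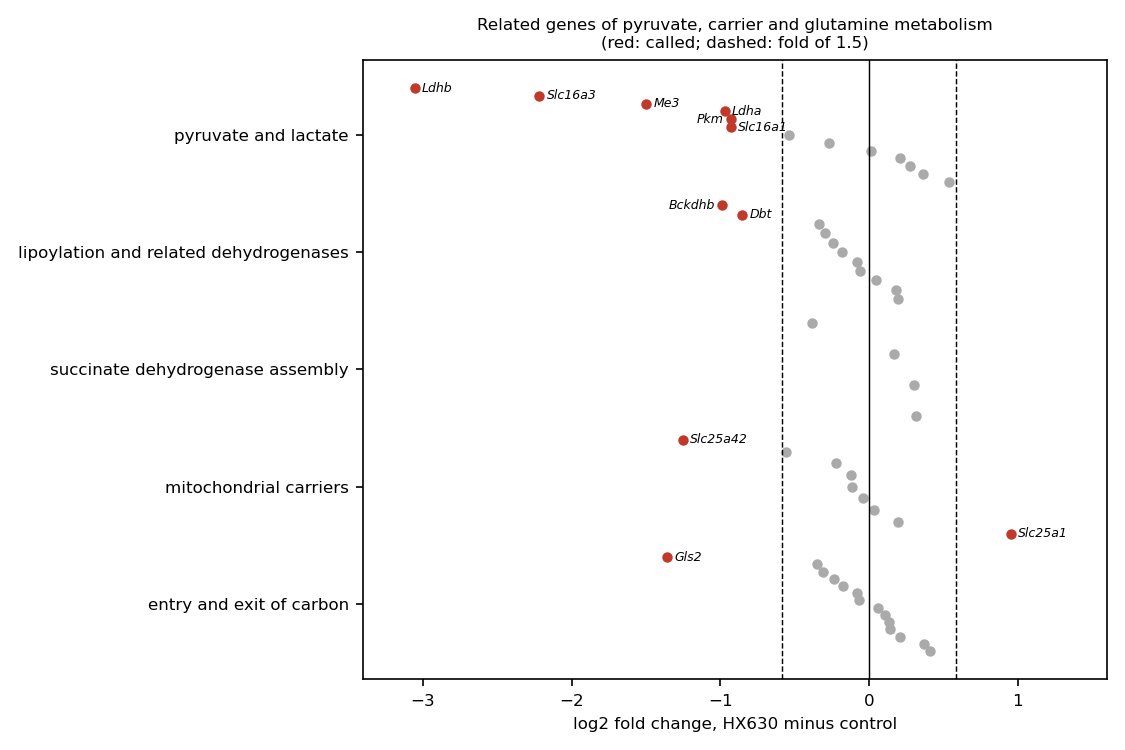
Log2 fold change (HX630 minus control, x axis, 75th percentile scaling) of the 51 tested related genes by list (y axis), with called genes in red and named, and a fold of 1.5 as dashed lines. The called genes lie to the left, from *Ldhb* at -3.06 to *Dbt* at -0.85, except *Slc25a1* at 0.95. With spike-in scaling 5 genes are called higher, and over all probes 4680 are, against 2131 with the 75th percentile.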

How the data were processed

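Gene expression was measured in 4 control and 4 HX630-treated AtT20 samples on 1-color Agilent mouse arrays. The authors deposited the intensity values of each array, written by Feature Extraction 10.7.3.1 (submitters' processing notes), where the processed signal is background-subtracted and carries no scaling between arrays. A second deposited table holds log2 values, which differed from log2 of the processed signal by a constant for each array, its 75th percentile. No genome build was needed for the expression values, because probes were named through RefSeq accessions. The promoter windows are on GRCm38.p6.

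The same scaling was applied here to the processed signals. Of 44397 spots, 1377 control spots were left out, along with outlier spots, and spots of a probe were averaged to 39429 probes, of which 26055 were paired with a symbol. Groups were compared over all 8 arrays with lmFit and eBayes of limma 3.58.1 in R 4.3.3, without covariates and with Benjamini-Hochberg adjustment. Paired genes were compared by the exact permutation test over 70 regroupings. The number of arrays limits the precision. The median SD within a group was 0.088 and the median SE 0.066 on the log2 scale. Alternatives were 4 other scalings, normexp background correction (on median spot intensities, offset 50), the deposited values, other filters, probe summaries, tests and thresholds, a replicate block, and the omission of single arrays.

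The genes and the related lists were chosen with earlier results of these data known. All 37 genes are named, with full statistics for those called and for the 5 uncalled genes of largest change. Of the related genes those called are named. The code was tested on simulated data. The PCR, luciferase, hormone and animal experiments are not analysed here.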

Additional observations from a re-analysis of the deposited data

Results flagged for a closer look

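In 2 of 70 groups of 4 arrays, a single array stood apart from the other 3 by more than Dixon's 95% critical value, and chance flags about 1 in 20 groups. For *Mpc1* with HX630, replicate 3 had a log2 signal of 3.63 against a mean of 3.71 for the others (gap over range 0.905), and the *Mpc1* log2 fold change lay between -0.56 and -0.51 when each array was left out in turn. For *Idh1* in control cells, replicate 4 was at -2.20 against -2.33 (gap over range 0.853), and the *Idh1* log2 fold change lay between 1.11 and 1.16 in the same way.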

How the results depend on the processing

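The limits of these values are the slide, which cannot be told apart from treatment, the 4 arrays per group, the fold threshold near which *Got1*, *Idh3b* and *Mpc1* lie, and the scaling, which decides the sign of small changes. The causes of the shifts below were not tested.

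With spike-in scaling, the median of the 35 genes was 0.053, 7 of them were lower and 10 higher at an adjusted p below 0.01, and the sign turned for *Pdha1* (0.12), *Pdhb* (0.050), *Dlat* (0.086), *Mpc2* (0.23), *Cs* (0.12), *Idh3g* (0.072), *Dlst* (0.24), *Suclg2* (0.053), *Mdh2* (0.0044) and *Got2* (0.097). Of the 35 genes 3 were called up-regulated and 1 down-regulated, of the related genes 5 were up-regulated, and over all probes 4680 rose and 1786 fell, against 2131 and 3184 with the 75th percentile. The sign also turned for *Mpc2* (0.057) and *Dlst* (0.070) with the median of each array, for *Dlst* (6.86e-04) with the 75th percentile of detected probes, and for *Mpc2* (0.053), *Cs* (0.085), *Dlst* (0.061) and *Mdh2* (0.033) with quantile normalization. The median of the 35 genes was -0.11 with the median of each array, -0.13 with quantile normalization and -0.28 with normexp, and with the median or quantile scaling 2 of the 35 genes and 2 related genes were up-regulated. Of the called probes, 40.1% were higher with the 75th percentile, 51.6% with the median, 49.8% with quantile normalization, 72.4% with spike-in probes and 31.7% with normexp. With normexp, 1240 probes were called up-regulated, *Mdh1* against *Mdh2* turned to 0.0068, *Pdk2* against *Pdk3* was 0.13 and *Idh3a* against *Idh3g* -0.17. Without the fold threshold, 6 of the 35 genes were higher and 18 lower, 11 related genes were higher and 18 lower, and 5763 probes were higher and 7245 lower. Averaging a gene's probes gives no count of probes, and with it *Mpc1* was called (-0.59).

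Leaving out each array in turn gave 3 to 5 down-regulated and 1 up-regulated gene of the 35, with a median between -0.21 and -0.18, 10 to 11 down-regulated related genes, and 1944 to 2568 probes called up-regulated and 2879 to 3369 down-regulated. The lowest count, 3, was without control replicate 1, where *Got1* was lost, and *Idh3b* was called without control replicate 3 (-0.59) or 4 (-0.60). *Fh1* ranged from -0.020 to 0.033 and *Dlst* from -0.044 to 0.0029 across these, both changing sign.

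A replicate block called 1 gene up-regulated and 4 down-regulated, the same 5 genes. The deviations of same-numbered control and HX630 arrays correlated at 0.52, -0.0096, 0.24 and 0.38, control replicates 1 and 4 correlated best with their own number and 2 and 3 with another, and the numbers were not taken to pair the arrays.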

Other observations

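For *Ogdh*, *Pdhb* and *Sdhb*, the probes of a gene differed in size though not in sign. *Pdhb* gave -0.21 on its brightest probe and -0.41 (limma adjusted p = 9.82e-04) on the other, and *Sdhb* gave -0.27 and -0.13 (adjusted p = 0.00823).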
